A study of Mus musculus with 8 samples.

Results

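The pre-B cell receptor is the first form of the B cell receptor that a developing B cell assembles. In it, an immunoglobulin heavy chain pairs with a surrogate light chain made of λ5, encoded by *Igll1*, and VpreB, encoded by the closely related genes *Vpreb1* and *Vpreb2*. Igα and Igβ, encoded by *Cd79a* and *Cd79b*, carry the signal into the cell through their cytoplasmic tyrosine motifs. *Vpreb3* encodes a protein related to VpreB. EBF1 and the E proteins are known activators of several of these genes in B cell precursors. The members here were the ATAC-seq peaks of these 6 genes. A peak belonged to a gene when its center fell within the gene, within 20 kb before its start or within 10 kb past its end, and no other gene was closer in the GENCODE annotation of mm10. This gave 15 of 87642 peaks in MPP3 cells and 14 of 86952 peaks in MPP4 cells.

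ATAC-seq measures how often the Tn5 transposase inserts into DNA, which reports open chromatin. The study profiled 5000 sorted cells per library, with 2 *Ebf1* WT and 2 *Ebf1* KO libraries from MPP3 cells and as many from MPP4 cells, 8 in all. Both populations are early bone marrow progenitors that still give rise to several lineages, MPP3 with a myeloid and MPP4 with a lymphoid bias. By the labels, all mice were C57BL/6 with floxed *Ebf1* alleles (Ebf1fl/fl). *Ebf1* KO mice also carried Tie2Cre (+/cre) and *Ebf1* WT mice did not (+/+), whereas the design text describes the controls as *Ebf1* wild type with Tie2Cre. The Tie2 promoter is active in endothelial as well as hematopoietic cells. MPP3 mice were 8 weeks old in the *Ebf1* WT group and 8 and 9 weeks old in the *Ebf1* KO group. MPP4 mice were 9 weeks old in the *Ebf1* WT group and 8 weeks old in the *Ebf1* KO group. All mice were female except 1 male in the *Ebf1* WT MPP4 group. Cells depleted of mature lineages were sorted as LSK CD150- CD48+ (MPP3), a gate for which the labels name no Flt3 criterion, or with Flt3 in addition (MPP4).

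Each level given here is the authors' mean log2 CPM of a peak over the libraries of a cell type, with both genotypes pooled. It has no error, and the spread between libraries and the exact depth of each library are unknown here. Levels are therefore described without a test, and which of them differ beyond the spread between mice cannot be said. No comparison between *Ebf1* WT and *Ebf1* KO cells was made. MPP3 and MPP4 tables were normalized separately, so every level set across them is a side-by-side description. Peaks were found by the authors on merged replicates and joined over genotypes. A position without a peak in a table thus had none in either genotype, and its presence has no replicate. In bulk cells, a few strongly open cells and many weakly open cells cannot be told apart.

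In MPP3 cells each of the 6 genes had at least 1 peak, and in MPP4 cells 4 of them did. Over all annotated genes, 25617 had an assigned peak in MPP3 cells and 25342 had one in MPP4 cells. No share of all annotated genes was taken, so how usual the member counts are cannot be said. For peaks near the start alone, the share of autosomal protein-coding genes was 67.5% in MPP3 and 67.3% in MPP4 cells. *Igll1* and *Cd79a* had a peak at the transcript start in the MPP3 table and none there in the MPP4 table, and *Cd79a* had no MPP4 peak at all. The member peaks were of middling level in MPP3 cells and mostly weak in MPP4 cells. Their median log2 CPM was 2.45 in MPP3 cells, beside 2.24 over all MPP3 peaks, and 10 of 15 lay above the median of the table. In MPP4 cells their median log2 CPM was 1.31, beside 2.35 over all MPP4 peaks, and 1 of 14 lay above the median. That peak was the one between *Igll1* and *Vpreb1*. A second high MPP4 peak, at chr16:16870577-16871259 (mean log2 CPM 4.84, percentile 90.1), is not in this count because its center lay 47 bp from *Top3b* and 75 bp from *Vpreb1*. Its MPP3 partner was closer to *Vpreb1* and is counted among the 10. The medians thus cover different sets of peaks. Over the MPP3 member peaks with an MPP4 partner, the median difference in mean log2 CPM, MPP4 minus MPP3, was −0.36. A peak of the other cell type overlapped 10 of the 15 MPP3 member peaks (66.7%) and 9 of the 14 MPP4 member peaks (64.3%). Over the whole tables these shares were 75.7% and 76.7%.

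The genes of the surrogate light chain lie on chromosome 16. *Igll1* (chr16:16860671-16863985, minus strand) and *Vpreb1* (chr16:16868403-16870843, minus strand) are neighbours, with *Vpreb1* upstream of *Igll1*. The *Igll1* start was covered by an MPP3 peak at chr16:16863924-16864341, whose center lay 147 bp upstream of the start. Its mean log2 CPM was 3.55 (percentile 76.8 among all MPP3 peaks and 40.9 among those near protein-coding starts). In the MPP4 table the nearest peak to that start was centered 1418 bp away. This more distant peak stood in both tables, at chr16:16865224-16865608 in MPP3 cells and chr16:16865194-16865613 in MPP4 cells, upstream of *Igll1* and downstream of *Vpreb1*. It reached a mean log2 CPM of 4.92 among MPP3 peaks (percentile 91.02) and 5.15 among MPP4 peaks (percentile 92.5). The *Igll1* locus thus held an intergenic peak of similar level in both cell types and a start peak listed for MPP3 cells alone.

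*Vpreb1* had no peak at its coding transcript start at position 16869255 in either table. The nearest MPP3 peak, chr16:16870564-16871242, was centered 1648 bp upstream of it, with a mean log2 CPM of 5.02 (percentile 91.7). This peak was assigned to *Vpreb1* through the start of a non-coding transcript 60 bp from its center, and it also covers the start of *Top3b*, a topoisomerase gene on the other strand. In MPP4 cells the overlapping peak at chr16:16870577-16871259 had a mean log2 CPM of 4.84 (percentile 90.1) and its center was closer to *Top3b*, which left *Vpreb1* with 0 MPP4 peaks. The count of 0 for *Vpreb1* thus came from the assignment, since a peak stood at this position in both tables.

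*Vpreb2* (chr16:17980428-17981273, plus strand) had 4 peaks in MPP3 cells and 7 in MPP4 cells. The peak at its start was chr16:17980181-17980428 in MPP3 cells, with a mean log2 CPM of 2.12 (percentile 46.7 among all peaks and 14.3 among those near protein-coding starts). In MPP4 cells it was chr16:17980229-17980501, with a mean log2 CPM of 1.37 (percentiles 23.1 and 5.33). The other MPP3 peaks of *Vpreb2* ranged from 1.17 to 2.57 in mean log2 CPM and each overlapped an MPP4 peak. The 3 MPP4 peaks without an MPP3 partner lay far upstream of *Vpreb2*, centered 18816, 18504 and 11204 bp from the start, and had mean log2 CPM of 1.05, 0.61 and 1.24. The peak at 18816 bp was the outermost inside the upstream window of *Vpreb2* in MPP4 cells, and the first beyond that window lay 41406 bp away with a mean log2 CPM of 4.28.

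*Vpreb1* and *Vpreb2* are near-identical in sequence, and sequence that occurs more than once in the genome was therefore counted. An alignment of the genes in mm10 spanned 1083 columns with 96.4% identity and ended 229 bp upstream of the *Vpreb1* coding start and 237 bp upstream of the *Vpreb2* start. Of the 50-base windows in the *Vpreb2* start peak, 21.1% in MPP3 and 21.9% in MPP4 cells occur more than once in the genome. No 100-base window of either peak does. Reads were sequenced at 100 bases, but adapters were trimmed and short fragments kept, so mapped reads can be shorter. Mapping at their actual lengths was not tested, and neither was the effect of the authors' filter on mapping quality. The other member peaks held no repeated 50-base window. The part of the MPP3 start peak of *Vpreb2* that aligns, chr16:17980191-17980428 (plus strand), and its counterpart at *Vpreb1*, chr16:16869248-16869484 (minus strand), were 93.7% identical. They are shown in mm10 sequence because the tables list a peak over the first and none over the second, with capitals marking the bases that differ.
Vpreb2: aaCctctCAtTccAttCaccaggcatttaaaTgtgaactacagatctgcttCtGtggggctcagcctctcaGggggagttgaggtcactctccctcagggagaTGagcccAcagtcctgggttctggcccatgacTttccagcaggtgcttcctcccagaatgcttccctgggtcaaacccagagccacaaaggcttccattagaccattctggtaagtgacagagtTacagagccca
Vpreb1: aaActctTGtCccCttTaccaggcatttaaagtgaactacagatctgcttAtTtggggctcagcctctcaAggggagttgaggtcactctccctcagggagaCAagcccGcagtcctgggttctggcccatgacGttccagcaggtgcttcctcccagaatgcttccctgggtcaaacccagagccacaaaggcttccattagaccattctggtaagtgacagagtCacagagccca

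*Vpreb3* (chr10:75943057-75949657, plus strand) had its shared peaks beyond its 3′ end. The peak at chr10:75949687-75949943 had a mean log2 CPM of 2.35 in MPP3 cells and its MPP4 partner 1.92. The peak at chr10:75950790-75951072 had a mean log2 CPM of 2.67 in MPP3 cells and its MPP4 partner 1.65. *Vpreb3* has coding starts at 75943057 and 75948300, the second being that of its RefSeq promoter. No peak of either table lay within 1 kb of the second start, where the nearest centers were 1515 and 1521 bp away. Within 1 kb of the first start the MPP3 table had no peak and the MPP4 table had weak ones, neither of which covered the start, at chr10:75942386-75942579 (mean log2 CPM 0.91, percentile 10.3) and chr10:75943161-75943310 (0.70, percentile 5.17, or 20.6 per kb of peak length). Repeats made up 72.2% of the first of these MPP4 peaks and 0.0% of the second.

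**Figure D1:**
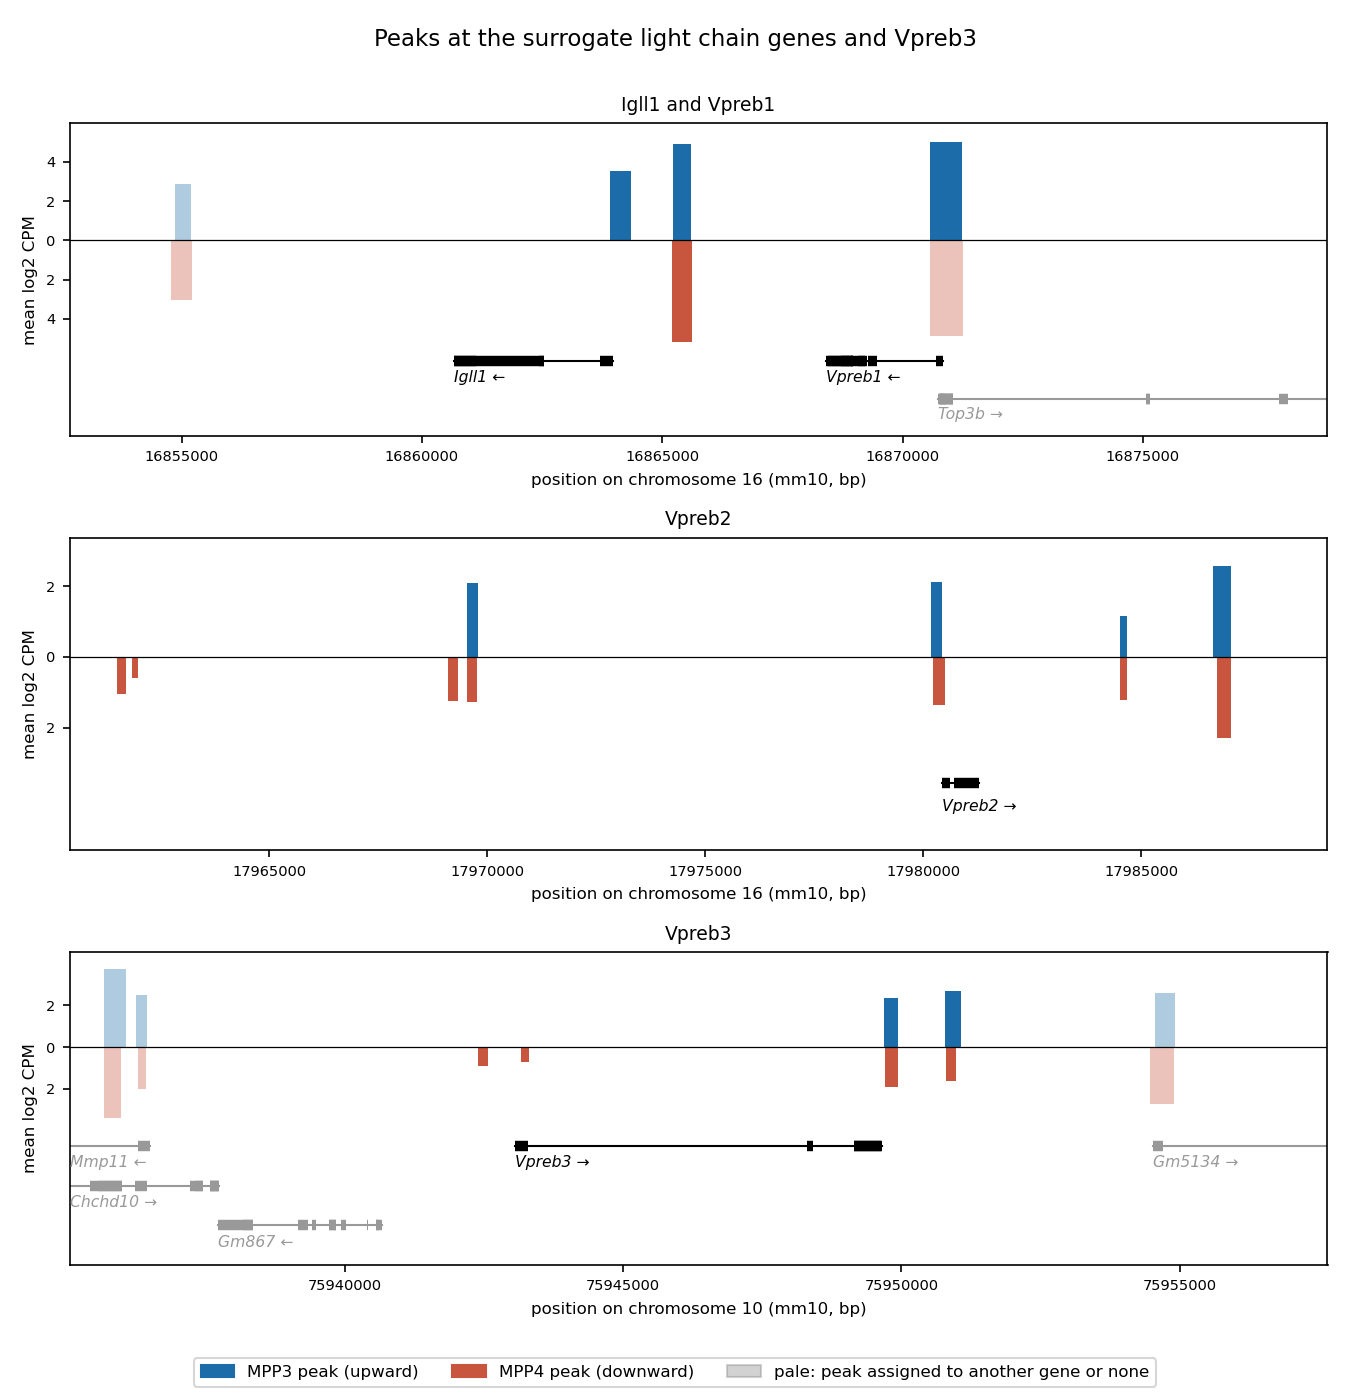
Peaks around *Igll1* and *Vpreb1*, *Vpreb2* and *Vpreb3*, with position in mm10 (bp) on the x axis and the authors' mean log2 CPM on the y axis, upward for MPP3 and downward for MPP4 cells; pale bars are peaks assigned to another gene or none, and thick lines are exons of protein-coding genes. The *Igll1* start peak (3.55) has no MPP4 counterpart, whereas the next peak upstream stands at 4.92 in MPP3 and 5.15 in MPP4 cells.

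Of the signalling chains, *Cd79a* (chr7:24897381-24902197, plus strand) had peaks in MPP3 cells alone. The peak at its start, chr7:24897218-24897560, was centered 8 bp from the start in the first exon and had a mean log2 CPM of 3.04 (percentile 68.4 among all MPP3 peaks and 30.6 among those near protein-coding starts). The second peak, chr7:24896223-24896577, lay 981 bp upstream with a mean log2 CPM of 2.22. In MPP4 cells the peak nearest to the *Cd79a* start was centered 6720 bp away and belonged to *Rps19*, a ribosomal protein gene. The neighbours of *Cd79a* held peaks in both tables, but the *Arhgef1* peak closest to *Cd79a*, chr7:24902830-24902979 with a mean log2 CPM of 3.26, also stood in the MPP3 table alone. It covers the first start of *Arhgef1*, at position 24902912. The *Rps19* peak at chr7:24883882-24884742 had a mean log2 CPM of 7.11 in MPP3 cells and its MPP4 partner 6.66, and the *Arhgef1* peak at chr7:24904040-24904492 had 6.45 in MPP3 cells and its partner 6.22 in MPP4 cells. The *Arhgef1* peak at chr7:24907214-24907500 went the other way, with 3.96 in MPP3 cells and 5.06 in its MPP4 partner.

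*Cd79b* (chr11:106311341-106314762, minus strand) had a peak at its start in both tables. That peak had a mean log2 CPM of 2.62 in MPP3 cells (percentile 59.4 among all peaks and 22.9 among those near protein-coding starts). Its MPP4 partner had a mean log2 CPM of 1.89 (percentiles 37.9 and 11.8). A second shared peak was centered in an intron of *Cd79b* and reached into the exon at chr11:106313661-106313711. Its mean log2 CPM was 2.03 at chr11:106313676-106313901 in MPP3 cells and 1.85 in its MPP4 partner, which covers that exon. A pair of peaks downstream of *Cd79b*, chr11:106308212-106308474 (mean log2 CPM 2.26) and chr11:106310118-106310381 (2.45), stood in the MPP3 table alone. The window of *Cd79b* also held 10 MPP3 and 11 MPP4 peaks that were closer to *Scn4a*, a sodium channel gene, or to *Gh*, the growth hormone gene.

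**Figure D2:**
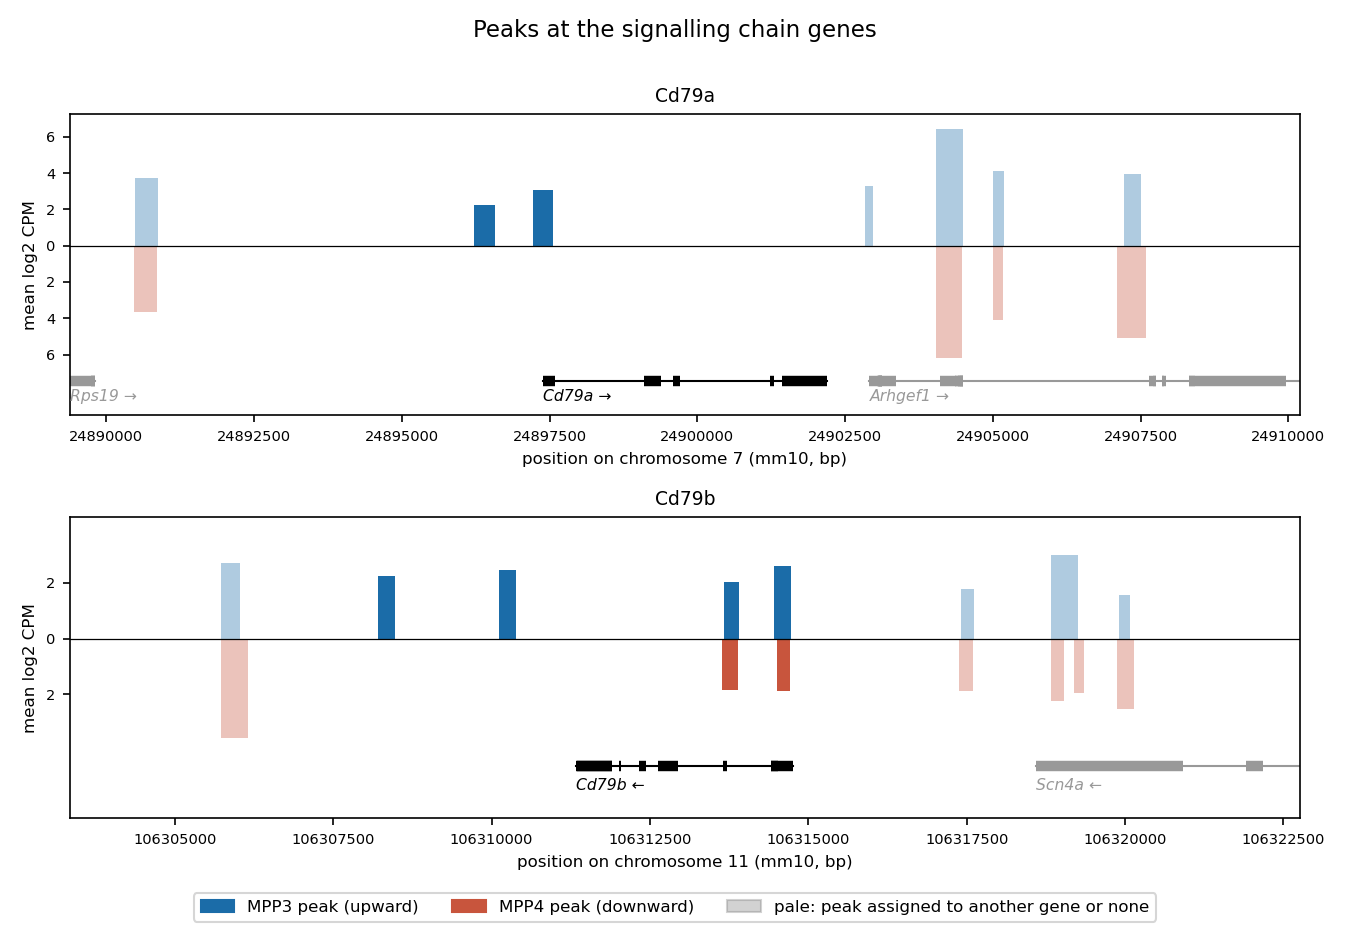
Peaks around *Cd79a* and *Cd79b*, with position in mm10 (bp) on the x axis and the authors' mean log2 CPM on the y axis, upward for MPP3 and downward for MPP4 cells; pale bars are peaks of other genes and thick lines are exons of protein-coding genes. *Cd79a* has MPP3 peaks of 2.22 and 3.04 and no MPP4 peak, and *Cd79b* has 4 MPP3 and 2 MPP4 peaks.

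Peaks with a center within 1 kb of any transcript start were present for 5 of the 6 genes in MPP3 cells and 4 of the 6 in MPP4 cells. The MPP4 count includes *Vpreb1* through the peak assigned to *Top3b*, which lies at a non-coding start and is not a member peak. These are thus not the same 4 genes that had an assigned MPP4 peak. *Igll1* and *Cd79a* had a start peak in MPP3 cells alone and *Vpreb3* in MPP4 cells alone, near its first start and without covering it. Among 20807 autosomal protein-coding genes, 2.46% had a start peak in the MPP3 table alone, 2.24% in the MPP4 table alone and 65.1% in both. Per kb of peak length, the scale on which genes can be set beside each other, the start peaks in MPP3 cells were ordered *Vpreb1* with *Top3b* (log2 CPM per kb 5.58), *Igll1* (4.81), *Cd79a* (4.59), *Cd79b* (4.51) and *Vpreb2* (4.13). Whether neighbours in this order differ cannot be said without a spread. The levels pool both genotypes, and the order within each genotype is unknown here.

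Between the cell types, 8 of the 10 shared member peaks had a lower level in MPP4 than in MPP3 cells, and 7 of the 10 did per kb of peak length, where the *Vpreb2* peak starting at 17986646 turned from −0.29 to 0.09. Over all 66324 shared peaks, 47.0% were lower in MPP4 cells, or 51.6% per kb. The median difference in mean log2 CPM, MPP4 minus MPP3, was −0.36 over the shared member peaks and 0.04 over all shared peaks, whose 10th and 90th percentiles were −0.61 and 0.81. The lowest member value was −1.02, at the 3′ peak of *Vpreb3* starting at 75950790, and the highest was 0.23, at the peak between *Igll1* and *Vpreb1*. The start peaks of *Vpreb2* and *Cd79b* differed by −0.75 and −0.73. The partner peaks differ in length, and per kb these differences were −0.89 at *Vpreb2*, then the lowest of the members, and −0.38 at *Cd79b*. At the *Vpreb3* peak, which was 283 bp long in MPP3 and 183 bp in MPP4 cells, the difference was −0.39 per kb.

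**Figure D3:**
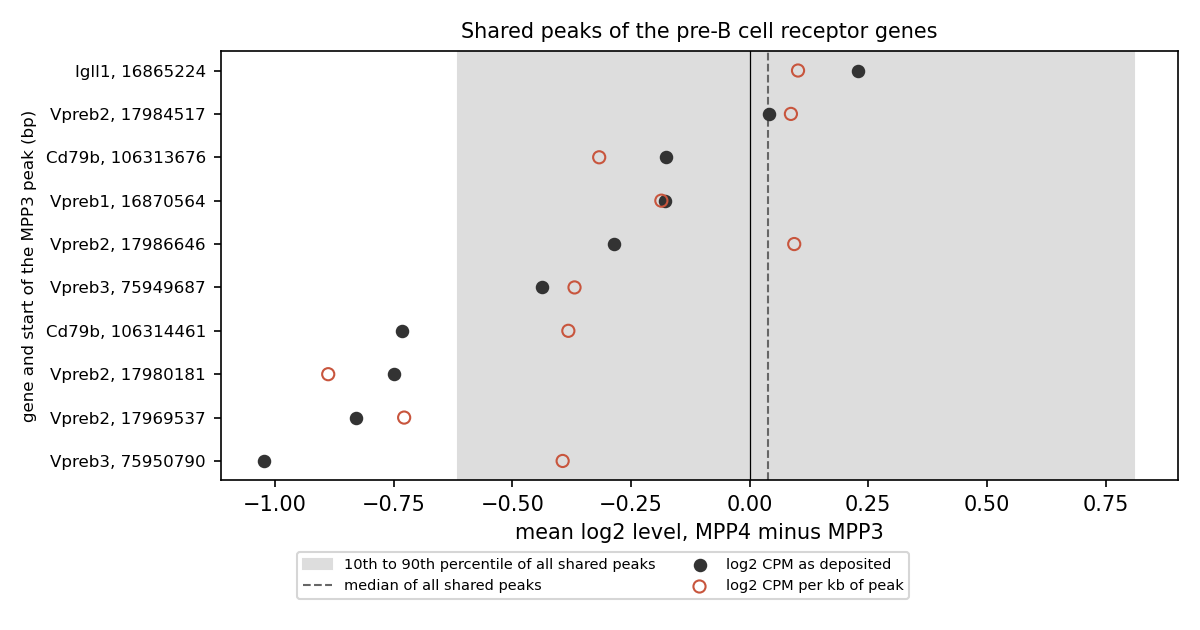
Difference in the authors' mean log2 level, MPP4 minus MPP3, on the x axis for each of the 10 shared member peaks, named by gene and MPP3 start on the y axis. Filled points are log2 CPM and open points are log2 CPM per kb. The grey band holds the 10th to 90th percentile of all shared peaks and the dashed line is their median. Both are in log2 CPM and refer to the filled points alone. Per kb the median over all shared peaks was −0.015. The filled points run from −1.02 at *Vpreb3* to 0.23 at *Igll1*, with 8 of 10 below 0.

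The sequence under the peaks was searched on both strands for the EBF1 consensus TCCCNNGGG and for the E-boxes CAGGTG and CAGCTG, which E proteins such as E2A can bind. In MPP3 cells 2 of the 15 member peaks held the EBF1 consensus (13.3%), beside 7.46% of all MPP3 peaks and 13.5% of MPP3 peaks near protein-coding starts. They were the start peaks of *Igll1* and *Cd79b*. In MPP4 cells the *Cd79b* start peak was the 1 of 14 that did (7.14%), beside 6.49% of all MPP4 peaks and 12.4% of MPP4 peaks near protein-coding starts. An E-box was present in 9 of the 15 MPP3 member peaks and 6 of the 14 MPP4 member peaks, beside 38.7% and 40.0% of all peaks. Such a match is a description of letters and does not show that a factor binds. The *Igll1* start peak held 4 E-boxes, whereas the shared peak between *Igll1* and *Vpreb1* held none and no EBF1 consensus.

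The start peaks of *Igll1* and *Cd79a* are shown in mm10 sequence, on the strand of the gene, because they stood in the MPP3 table alone. Capitals mark the EBF1 consensus and the E-boxes. For *Igll1* the central 300 bases of the MPP3 peak, chr16:16863983-16864282 (minus strand), hold the EBF1 consensus 249 bp upstream of the start. For *Cd79a* the central 300 bases, chr7:24897239-24897538 (plus strand), hold an E-box 36 bp upstream of the start and no EBF1 consensus.
Igll1: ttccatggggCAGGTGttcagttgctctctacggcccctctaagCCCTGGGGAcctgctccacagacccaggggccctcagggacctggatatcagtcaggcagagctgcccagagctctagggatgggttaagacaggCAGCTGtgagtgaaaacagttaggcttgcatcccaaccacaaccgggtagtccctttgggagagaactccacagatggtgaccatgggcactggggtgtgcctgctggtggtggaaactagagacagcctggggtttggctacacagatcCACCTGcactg
Cd79a: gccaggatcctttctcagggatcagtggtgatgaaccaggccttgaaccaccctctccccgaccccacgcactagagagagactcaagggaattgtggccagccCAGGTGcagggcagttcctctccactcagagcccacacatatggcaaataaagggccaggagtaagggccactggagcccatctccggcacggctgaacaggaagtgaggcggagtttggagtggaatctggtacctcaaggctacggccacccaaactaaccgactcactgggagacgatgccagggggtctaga

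RefSeq promoters (GRCm38.p6, 250 bases before to 50 after the start) were given for 5 of the 6 genes, *Cd79b* being the one not matched. The windows of *Vpreb2* (chr16:17980315-17980614) and *Cd79a* (chr7:24897247-24897546) are placed around starts further downstream than the GENCODE starts used above. None of the 5 promoters held the whole EBF1 consensus, which stood in 6.56% of all 32851 promoters. The match in the *Igll1* peak runs across the upstream edge of its promoter window. E-boxes were present in the promoters of *Igll1*, *Vpreb1*, *Vpreb2* and *Cd79a* and not in that of *Vpreb3*, beside 32.9% of all promoters. *Vpreb1* and *Vpreb2* share the same CAGGTG in the near-identical stretch shown above, so their promoters do not count as independent.

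Of 28 other genes of pre-B cell receptor signalling and its regulators on the autosomes, 26 had a start peak in MPP3 cells, with a median log2 CPM of 3.96, where a gene with several start peaks is given by its highest. In MPP4 cells 23 had one, with a median of 3.91, and all 23 were among the 26. Of all autosomal protein-coding genes, 67.5% had a start peak in MPP3 and 67.3% in MPP4 cells. Taken in the same way, by the highest start peak of each gene, their median log2 CPM was 4.62 in MPP3 and 4.48 in MPP4 cells, above the medians of the 28. *Blnk*, the adaptor of the pathway, had start peaks of 3.45 in MPP3 and 3.03 in MPP4 cells in mean log2 CPM. *Syk*, its kinase, had 4.92 and 4.72. *Pax5*, the B lineage commitment factor, had 4.86 and 4.52, and *Il7r*, the interleukin 7 receptor chain, had 2.70 and 3.64. *Rag1*, a recombinase subunit, had 1.96 and 1.75.

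The cell type labels were checked at marker genes, again by the highest start peak of each. Of the gate markers, *Kit*, *Cd34* and *Cd48* had a start peak in both tables. *Ly6a*, which encodes the Sca-1 of the LSK gate, had none in MPP3 cells and a weak one in MPP4 cells, with a mean log2 CPM of 1.15. *Slamf1*, which encodes CD150 and was gated out, had weak start peaks in both tables, with 1.42 in MPP3 and 1.33 in MPP4 cells. The presence of a start peak thus did not follow the gate at *Ly6a* in MPP3 cells or at *Slamf1*. *Flt3*, which defines the MPP4 gate, had a mean log2 CPM of 5.92 in MPP3 and 7.01 in MPP4 cells. Of the myeloid markers *Mpo*, *Elane*, *Csf1r*, *Itgam* and *Ly6g*, 3 of 5 had a start peak in each table, and *Csf1r* and *Ly6g* had none. *Mpo* had a mean log2 CPM of 5.98 in MPP3 and 3.95 in MPP4 cells and *Elane* 3.01 and 1.80, whereas *Itgam* had 2.85 and 3.16. The median log2 CPM of the myeloid start peaks was 3.01 in MPP3 and 3.16 in MPP4 cells, and their summed CPM was 78.2 and 27.9. Of the B cell markers *Ms4a1*, *Cd22*, *Pax5* and *Fcer2a*, 3 of 4 had a start peak in MPP3 cells and 2 of 4 in MPP4 cells, with *Pax5* the highest and *Fcer2a* without one in either. Their summed CPM at starts was 37.8 in MPP3 and 25.9 in MPP4 cells, whereas the median log2 CPM of these start peaks was 2.18 and 3.02. Of the non-hematopoietic markers *Cdh5*, *Col1a1* and *Alb*, 2 of 3 had a start peak in each table and *Alb* had none. Their summed CPM was 16.1 in MPP3 and 37.0 in MPP4 cells. The summed CPM of the B cell and of the myeloid markers was lower in MPP4 cells, as were most levels of the shared member peaks. *Cdh5*, an endothelial cadherin and the higher of these, had a mean log2 CPM of 3.42 in MPP3 and 4.85 in MPP4 cells. *Col1a1* had 2.42 and 3.03, at different starts of the gene. Of the T cell markers *Cd3e*, *Cd3d* and *Cd8a*, *Cd3d* alone had a start peak, with 6.14 in MPP3 and 6.27 in MPP4 cells. Of the erythroid and megakaryocyte markers *Klf1* and *Itga2b*, *Itga2b* alone did, with 5.58 and 5.13, again at different starts. The part of such cells, and of mature B cells, in the member levels was not tested.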

How the data were processed

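Bulk ATAC-seq tables of MPP3 and MPP4 cells were analysed, each from 2 *Ebf1* WT and 2 *Ebf1* KO libraries. Per the labels and the paper's methods, the authors trimmed reads with cutadapt 2.10 and mapped them to mm10. They removed duplicates, filtered reads on mapping quality and kept short nucleosome-free fragments. They found peaks with MACS2 2.2.7.1 on merged replicates, joined both genotypes within a cell type and counted fragments for edgeR 3.32.0. The log2 CPM that the authors deposited is edgeR's mean over the libraries of a cell type, and it sums on the linear scale to 1034292 in MPP3 and 1032362 in MPP4 cells, so it is relative to fragments in peaks. The tables also hold the fold change, F statistic, p-value and FDR of *Ebf1* KO against *Ebf1* WT. These are the authors' own comparison and were not used, so no test was run. No value per library, and hence no depth or spread, was analysed here.

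Peaks were assigned to the closest transcript of GENCODE vM21 measured from the peak's midpoint to the nearest of the transcript's start, middle and end. Peaks of the cell types were matched at an overlap of 1 bp or more. EBF1 matches of both strands on the same core were counted once. Assignment, overlap and motif search were tested on simulated data. Named genes were the members, neighbours that take a peak in their windows, and fixed lists of pathway and marker genes. *Btk* and *Gata1* were left out because the tables cover autosomes. List genes that are not named enter the counts alone, and sequences are shown for chosen peaks. Beyond these, a gene that was planned for the lists is in no count and is not reported here. The members and lists were chosen with earlier results of these data known. Protein identity between *Vpreb1* and *Vpreb2* was planned, and nucleotide identity was used in its place. Alternatives were another window, assignment, overlap, start distance, scale and motif. Python 3.11.15, numpy 2.4.6, pandas 2.3.3, biopython 1.88 and matplotlib 3.10.9 were used.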

Additional observations from a re-analysis of the deposited data

How the results depend on the processing

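Counts of member peaks depended most on assignment. Counting every peak in the windows gave 37 peaks in MPP3 and 37 in MPP4 cells, and a window of 10 kb upstream and 5 kb downstream gave 13 and 9. Assignment by distance to the transcript start only gave 22 and 21, and protein-coding transcripts only gave 15 and 15, beside the 15 and 14 reported. Requiring a peak to cover a transcript start left 5 start peaks in MPP3 and 3 in MPP4 cells, beside 7 and 6 within 1 kb. Both MPP4 counts include the peak at *Vpreb1* that was assigned to *Top3b*. A distance of 500 bp left 5 and 4. Coverage of 50% left the overlap counts at 10 and 9. When 100 bp to each side of the center were searched, 1 MPP3 and 1 MPP4 member peak held the EBF1 consensus (6.67% and 7.14%). This was beside 4.7% and 3.76% of all peaks and 6.27% and 5.82% of those near protein-coding starts. The looser core CCCNNGGG was in 3 of 15 MPP3 and 2 of 14 MPP4 member peaks. It was in 14.6% and 13.4% of all peaks and 28.9% and 27.1% of those near protein-coding starts. The general E-box CANNTG was in 14 MPP3 and 11 MPP4 member peaks (93.3% and 78.6%), beside 76.6% and 78.2% of all peaks. Ranked among peaks near protein-coding starts, all 13 start peaks had a lower percentile, 11 of 13 by 10 points or more. Peaks near starts have a higher median log2 CPM, 3.99 in MPP3 and 3.88 in MPP4 cells beside 2.24 and 2.35 over all peaks. Per kb of peak length, 4 of 13 percentiles moved as far. They went from 49.5 to 30.8 at the upstream MPP3 peak of *Cd79a* and from 23.1 to 11.2 at the MPP4 start peak of *Vpreb2*. They went from 5.17 to 20.6 at the *Vpreb3* peak starting at 75943161 and from 37.9 to 49.3 at the MPP4 start peak of *Cd79b*.

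Other alternatives were chosen after seeing the data. With up to 1 mismatch to the palindromic consensus, extended by an A, 5 MPP3 and 4 MPP4 member peaks matched (33.3% and 28.6%), beside 16.8% and 15.7% of all peaks and 27.1% and 25.3% of those near protein-coding starts. With 100-base windows 0.0% of the *Vpreb2* start peak was repeated in either table. Coding transcript starts alone gave 6 start peaks in MPP3 and 5 in MPP4 cells. Per kb of peak length, the difference at the *Vpreb2* peak starting at 17986646 became 0.094 and no other shared member peak changed sign.

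No paired analysis was possible because the tables hold no value per library. Leaving out replicates could not be run for the same reason, and the precision of each level is unknown here.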
